A study of Mus musculus with 8 samples.

Results

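The step from zeitgeber time (ZT) 18 to ZT0 covers the later part of the dark phase, in which mice are active and feed, and ends at lights-on. It was followed by comparing the 2 libraries of ZT0 with the 2 libraries of ZT18, 4 of the 8 libraries of the series. All genes whose mean reached 10 normalised counts over the 8 libraries were taken, which left 13503 of the 14247 genes in the table. A normalised count is the read count of a gene divided by 1 size factor per library. Just below the minimum stood Abcb1b, with a mean of 9.99 normalised counts, and just above it 9330104G04Rik, with 10.01.

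The libraries were bulk RNA sequencing of colonic crypts, the glands that line the colon, labelled as colonic epithelial cells of wild-type (WT) mice and collected at ZT0, ZT6, ZT12 and ZT18, with 2 libraries per time point. The mice were of C57BL/6 background, 2 to 4 months old, kept in 12 h of light and 12 h of dark. The labels name no difference between the groups of the comparison other than the time of collection, and no added allele or agent. Crypts were loosened with EDTA, scraped from the large intestine and passed through a strainer, so that cells lying between the crypts can be carried along. The mice of ZT18 and ZT0 were different animals. The study names more mice per time point than there are libraries here, and whether a library came from 1 mouse or from pooled mice is not stated, so p-values measure the spread between these libraries, which may be technical.

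In the order replicate 1 and replicate 2, which all pairs of values follow, the ZT0 libraries held 17522075 and 19695953 recovered reads and the ZT18 libraries 25159440 and 21047784. Mitochondrial transcripts made up 12.2% and 19.8% at ZT0 and 22.2% and 9.80% at ZT18. The summed level of the 11 epithelial markers was 337774 and 306351 at ZT0 and 398320 and 303938 at ZT18 in normalised counts, far above the sums of the lists for immune, stromal and muscle cells. The B and plasma cell markers summed to 219 and 3402 at ZT0 and 613 and 203 at ZT18, the myeloid markers to 835 and 2021 at ZT0 and 1041 and 641 at ZT18 and the fibroblast markers to 277 and 889 at ZT0 and 221 and 259 at ZT18, of these 4 libraries highest in ZT0 replicate 2. T cell markers summed to 74 and 298 at ZT0 and 294 and 507 at ZT18, lowest in ZT0 replicate 1 and highest in ZT18 replicate 2, and endothelial markers to 179 and 237 at ZT0 and 101 and 72 at ZT18, higher in both ZT0 libraries. Milk protein transcripts summed to 4149 in ZT18 replicate 1 and to between 0 and 89 in the other 7 libraries. In bulk RNA, fewer cells of a type and less RNA per cell cannot be told apart.

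In the gut lining, several daily programmes meet at the end of the night. The molecular clock is a loop in which BMAL1 (gene Arntl) with CLOCK or NPAS2 switches on the Per, Cry and Nr1d genes, whose proteins then hold back BMAL1 or its transcription. PAR bZIP factors such as DBP and TEF are driven by the same loop and pass its rhythm to enzymes and transporters. Crypts renew the epithelium by cell division at their base, in which replication of DNA in S phase precedes mitosis, and the mucosa keeps a basal level of interferon-stimulated genes, which encode antiviral sensors and effectors.

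Across all genes, no gene passed the test. Using limma with Benjamini-Hochberg adjustment over 13503 genes, 0 genes (0%) had an adjusted p under 0.05, and the smallest limma adjusted p was 0.0841, shared by 5 genes. At an unadjusted p under 0.05 there were 678 genes (5.02%), of which 346 were higher at ZT0 (2.56%) and 332 lower (2.46%). The edgeR quasi-likelihood test on recovered reads called 0 genes, with 691 (5.12%) at an unadjusted p under 0.05, and DESeq2 on the same reads called 56 (0.415%), 16 higher (0.118%) and 40 lower (0.296%). Both ZT0 libraries lay above both ZT18 libraries in 1872 genes (13.9%) and below them in 1839 (13.6%). The statements that follow therefore give the libraries themselves, and call a gene higher or lower at ZT0 as a description of these 4 libraries. When libraries were scaled to their non-mitochondrial reads, the 723 genes at an unadjusted p under 0.05 were 518 higher and 205 lower, and the median over all genes moved from 0.00 to 0.09 on the log2 scale. After removal of the trend on GC content and length the split was 262 higher and 477 lower, with a median of -0.06.

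Large differences leaned upwards. A log2 difference of 1 or more was found in 812 genes higher at ZT0 and in 415 lower, and the ZT0 and ZT18 libraries did not overlap in 433 and 243 of these. Without ZT0 replicate 2, the library rich in B cell, myeloid and fibroblast markers, the counts were 835 and 869. They were 854 and 719 without ZT18 replicate 1, 1173 and 417 without ZT0 replicate 1, and 1226 and 641 without ZT18 replicate 2. Above a mean of 50 normalised counts they were 163 and 147. The cause of the lean was not tested. Under quantile normalisation 523 genes were higher and 543 lower by that amount.

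**Figure D1:**
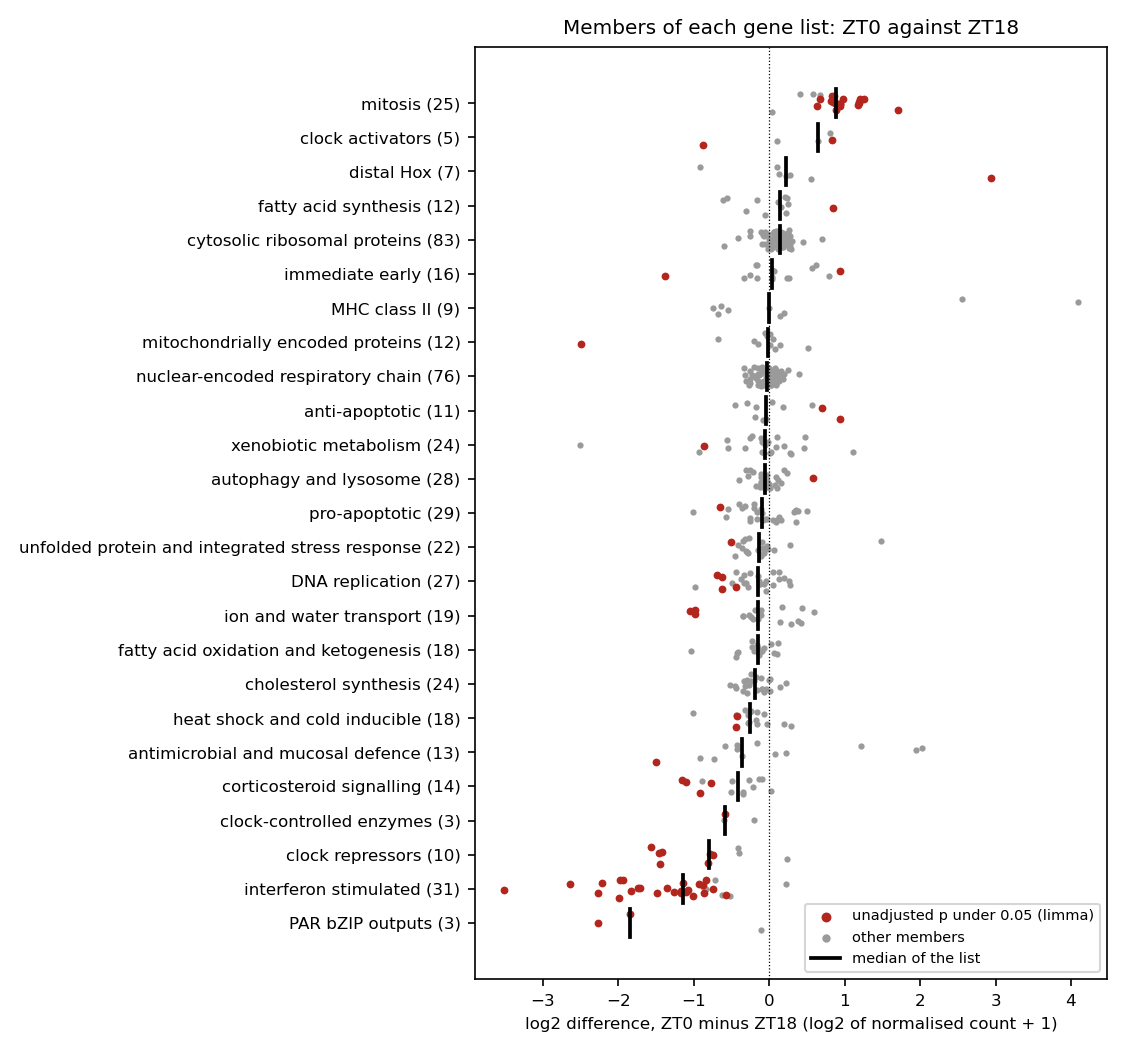
Log2 difference between ZT0 and ZT18 (x axis, log2 of normalised count + 1, ZT0 minus ZT18) of every tested member of 25 gene lists, with the number of members in brackets. Red points have an unadjusted limma p under 0.05, grey points do not, and black bars are list medians. The mitosis list lies to the right with a median of 0.88, and the interferon stimulated, clock repressor and PAR bZIP lists lie to the left with medians of -1.15, -0.80 and -1.85.

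Genes of mitosis stood higher at the start of the light phase. All 25 genes of the mitosis list had a log2 difference above 0, against 50.3% of all genes tested, and their median was 0.88, against 0.00 over all genes. In 23 of the 25 both ZT0 libraries exceeded both ZT18 libraries, where 13.9% of all genes did so, and 21 had an unadjusted p under 0.05 in that direction, where 2.56% of all genes did. The 2 exceptions, Plk1 and Kif11, had libraries that overlapped. None of the 25 passed the limma or the edgeR test. With DESeq2 3 passed, namely Ube2c, Ccnb2 and Mki67, where 0.118% of all genes were higher by that test. In 24 members the mean at ZT0 was the highest of all 4 time points, as in 23.5% of all genes. The list was chosen with earlier results of these data known, so its direction is not independent evidence.

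Coordinates are those of GRCm38, from the GENCODE M21 annotation. Ube2c (ENSMUSG00000001403, chromosome 2, 164769898 to 164778822, plus strand) encodes the ubiquitin-conjugating enzyme with which the anaphase-promoting complex marks cyclin B for destruction. It had 713 and 720.1 normalised counts at ZT0 and 285 and 318 at ZT18, with 453 and 408 at ZT6 and 311 and 409 at ZT12. The ZT0 libraries were close to each other and above all 6 other libraries. The log2 difference was 1.25 (SE 0.21), with a limma adjusted p of 0.303 and a DESeq2 adjusted p of 0.00126.

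Cyclin B is the partner of Cdk1 that drives entry into mitosis. Ccnb2 (ENSMUSG00000032218, chromosome 9, 70407692 to 70421547, minus strand) had 532 and 451 normalised counts at ZT0 and 206 and 224 at ZT18, a log2 difference of 1.19 (SE 0.22), and Ccnb1 (ENSMUSG00000041431, chromosome 13, 100778650 to 100786570, minus strand) had 530.4 and 449.6 normalised counts at ZT0 and 178 and 252 at ZT18, with 1.20 (SE 0.27). Cdk1 itself had 554 and 447 normalised counts at ZT0 and 289.7 and 269 at ZT18. All 3 genes were higher in both ZT0 libraries than in either ZT18 library.

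Mki67 (ENSMUSG00000031004, chromosome 7, 135689784 to 135716361, minus strand), which encodes the proliferation marker Ki-67 that coats mitotic chromosomes, had 4158 and 4021 at ZT0 against 2238 and 2268 at ZT18 in normalised counts, and 3574 and 2575 at ZT6 and 2628 and 2458 at ZT12. The difference was 0.86 (SE 0.19) on the log2 scale, the limma adjusted p was 0.493 and the DESeq2 adjusted p 0.0135. Both ZT0 libraries were above every library of ZT6, ZT12 and ZT18.

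Other members of the list act on the spindle and its checkpoint. Aurkb, the kinase that corrects faulty spindle attachments, had 452 and 468 normalised counts at ZT0 and 234 and 265 at ZT18, and Bub1b, a checkpoint kinase, had 481 and 381 normalised counts at ZT0 and 247 and 294 at ZT18. Cdc20, which activates the anaphase-promoting complex, had 546 and 478 normalised counts at ZT0 and 242 and 295 at ZT18, and Prc1, which bundles microtubules of the central spindle, had 334 and 232 normalised counts at ZT0 and 111 and 134 at ZT18. These 4 genes were higher in both ZT0 libraries, and their log2 differences were 0.88 (SE 0.24), 0.67 (SE 0.26), 0.93 (SE 0.24) and 1.19 (SE 0.29). Birc5, the gene of survivin, sits in both the mitosis and the anti-apoptotic list and had 391 and 419.7 normalised counts at ZT0 and 254 and 176 at ZT18. Top2a, which untangles DNA before chromosomes part, had 2402 and 1387 normalised counts at ZT0 and 1093 and 1256 at ZT18. Plk1, a kinase of mitotic entry, had 1659 and 2365 normalised counts at ZT0 and 2051 and 1805 at ZT18, so that ZT0 replicate 1 lay below both ZT18 libraries, and Kif11, the motor that separates the spindle poles, had 651 and 423 normalised counts at ZT0 and 242 and 446 at ZT18.

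A further 4 genes with roles in chromosome division were not in the list but were among the 12 genes higher at ZT0 with the smallest p. Cenpa (ENSMUSG00000029177, chromosome 5, 30666777 to 30674830, plus strand), the histone variant that marks the centromere, had 590.0 and 591 normalised counts at ZT0 and 278 and 240.5 at ZT18 and a log2 difference of 1.19 (SE 0.21). Ncapd2 (ENSMUSG00000038252, chromosome 6, 125168007 to 125191701, minus strand), a subunit of the condensin complex that compacts chromosomes, had 1085 and 1054 normalised counts at ZT0 and 473 and 610.4 at ZT18. Cdca3 (ENSMUSG00000023505, chromosome 6, 124829547 to 124833701, plus strand), which promotes entry into mitosis, had 985 and 1015 normalised counts at ZT0 and 497 and 458 at ZT18, and Knstrn (ENSMUSG00000027331, chromosome 2, 118814003 to 118853957, plus strand), a protein of the kinetochore and spindle, had 526 and 336 normalised counts at ZT0 and 194 and 162 at ZT18. All 4 were higher in both ZT0 libraries, which was a condition for being among the 12.

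**Figure D2:**
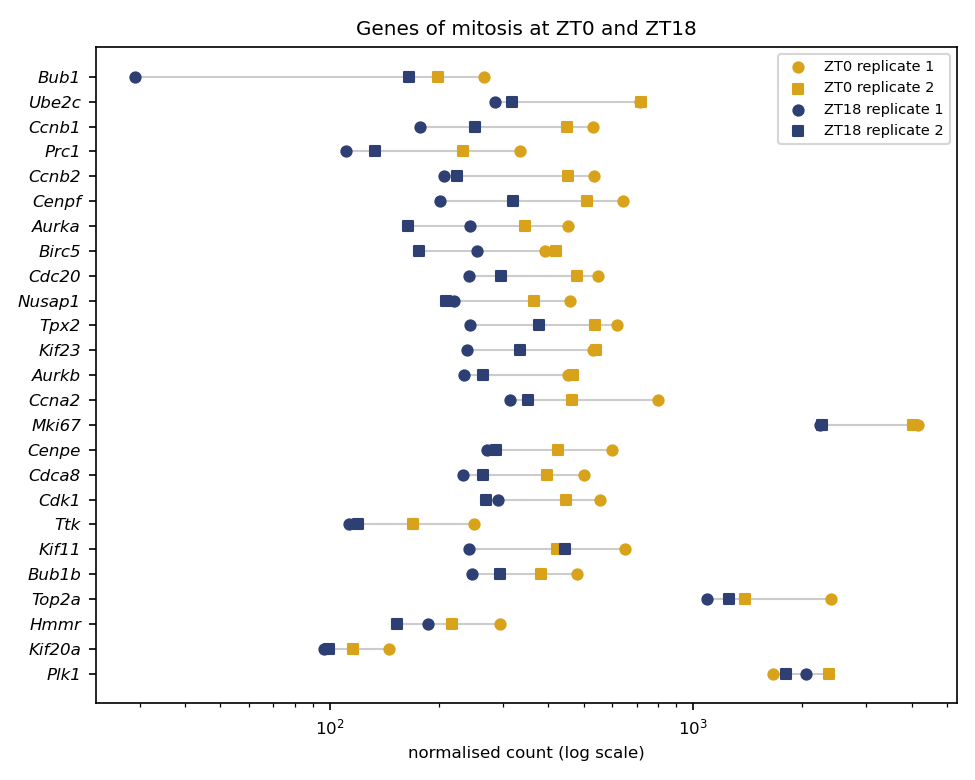
Normalised counts (x axis, log scale) of the 25 genes of the mitosis list in the ZT0 libraries (yellow) and the ZT18 libraries (dark blue), with circles for replicate 1 and squares for replicate 2, ordered by log2 difference. In 23 genes both yellow points lie to the right of both blue points, and Kif11 and Plk1 overlap.

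Genes of DNA replication did not share this direction. Of the 27 tested genes of that list, 20 were lower at ZT0 and 7 higher, with a median of -0.14, and 21 had their highest mean at ZT18. The ZT0 libraries lay below the ZT18 libraries in 6 and above them in 1, against 13.6% and 13.9% of all genes. Mcm2, a subunit of the helicase that opens the DNA double strand, had 398 and 365 normalised counts at ZT0 and 672 and 563 at ZT18, a log2 difference of -0.69 (SE 0.21). Another subunit, Mcm3, had 407 and 327 normalised counts at ZT0 and 590.4 and 538 at ZT18. Both and Mcm6 were among the 4 members with an unadjusted p under 0.05. All 8 genes of the MCM helicase and its loading (Mcm2 to Mcm7, Cdc6 and Cdt1), a subset chosen after the values were seen, were lower at ZT0 and highest at ZT18, with a median of -0.44. Over all genes 49.6% were lower at ZT0 and 25.1% were highest at ZT18. In 4 of the 8 both ZT0 libraries lay below both ZT18 libraries, the others overlapped, and Mcm7 differed by only -0.04 (SE 0.21). Rrm2, a subunit of ribonucleotide reductase, went the other way with 289 and 319.9 normalised counts at ZT0 and 255 and 254 at ZT18. The median of the list depended on ZT0 replicate 2, without which it was 0.02, with 14 members higher and 13 lower. The mitosis list was as large without that library as with it, with a median of 1.03, 24 of 25 members higher and 20 at an unadjusted p under 0.05.

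The proliferation lists were read beside the cell type markers. The mitosis genes summed to 18960 and 16531 at ZT0 and 10056 and 10845 at ZT18, and the B and plasma cell markers, given above, were highest in ZT0 replicate 2. The part of B cells in the mitosis list was not tested. Markers of crypt stem cells summed to 10149 and 9962 at ZT0 and 8566 and 10700 at ZT18, and their median log2 difference was 0.09. With any 1 of the 4 libraries left out, the median of the mitosis list was between 0.78 and 1.03, and 11 to 20 members had an unadjusted p under 0.05, the 11 without ZT0 replicate 1 and 14 without ZT18 replicate 1.

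The upstream sequences of 3 genes of the list are shown because mitotic promoters are known to share a CHR element (TTTGAA) and CCAAT boxes. They are the 3 members with the smallest p whose window held both motifs and at most 30 annotated exonic bases. They were read from the RefSeq promoter table (GRCm38.p6) and end at the base before the annotated start, running 5′ to 3′ on the strand of the gene over 250 bases. Capitals mark TTTGAA and CCAAT on either strand. The windows are chr9:70421555-70421804 for Ccnb2, chr7:135716380-135716629 for Mki67 and chr4:118437344-118437593 for Cdc20, all on the minus strand.
Ccnb2: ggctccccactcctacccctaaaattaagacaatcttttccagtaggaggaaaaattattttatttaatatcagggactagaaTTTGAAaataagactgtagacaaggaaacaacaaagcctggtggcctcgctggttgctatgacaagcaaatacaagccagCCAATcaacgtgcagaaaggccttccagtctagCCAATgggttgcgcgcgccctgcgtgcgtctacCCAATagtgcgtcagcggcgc
Mki67: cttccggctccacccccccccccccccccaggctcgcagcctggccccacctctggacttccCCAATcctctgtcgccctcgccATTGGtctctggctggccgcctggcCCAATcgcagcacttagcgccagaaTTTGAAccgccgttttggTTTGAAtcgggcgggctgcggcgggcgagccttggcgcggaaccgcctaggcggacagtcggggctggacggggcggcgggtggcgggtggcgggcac
Cdc20: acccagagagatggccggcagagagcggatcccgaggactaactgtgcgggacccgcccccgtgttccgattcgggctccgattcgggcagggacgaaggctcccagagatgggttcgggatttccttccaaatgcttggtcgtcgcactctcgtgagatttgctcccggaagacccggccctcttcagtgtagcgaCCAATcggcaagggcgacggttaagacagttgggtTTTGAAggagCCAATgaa
Of the 25 mitosis genes, 21 had a window. CCAAT was found in 19 of them (90.5%), where 40.4% of all 10511 tested genes with a window held it. It was not particular to this list, being found in 66.7% of the DNA replication genes with a window and in 7 of 8 clock repressors. Of the interferon genes with a window 44.0% held it. TTTGAA was found in 8 (38.1%, against 13.1%), and in 16 (76.2%, against 14.7%) when 50 bases after the start were searched as well. A match describes letters only and is not evidence of binding.

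Interferon-stimulated genes formed the opposite pattern, with lower levels at ZT0 than at ZT18. Low levels were not particular to ZT0. As a log2 level relative to the average of the 8 libraries, the list median was -0.73 and -0.40 at ZT0 and -0.76 and 0.05 at ZT12. Of the 31 tested genes of the list, 30 were lower at ZT0 than at ZT18, where 49.6% of all genes were, and the median log2 difference was -1.15. The ZT0 libraries lay below both ZT18 libraries in 28 members, against 13.6% of all genes, and 25 had an unadjusted p under 0.05 in that direction, against 2.46%. None passed limma or edgeR and 9 passed DESeq2, where 0.296% of all genes were lower by that test. In 29 members the mean at ZT18 was the highest of all 4 time points, as in 25.1% of all genes. Earlier results of these data had drawn attention to some interferon genes, so the direction of the list is not independent evidence.

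Oas3 (ENSMUSG00000032661, chromosome 5, 120753098 to 120777661, minus strand), a synthetase that makes 2-5A from ATP after binding double-stranded RNA, had 405 and 535 normalised counts at ZT0 and 1781 and 1788 at ZT18, and 929 and 642 at ZT6 and 399 and 843 at ZT12. The ZT18 libraries were nearly equal, and the log2 difference was -1.94 (SE 0.34) (DESeq2 adjusted p 5.04e-05). Ifi44 (ENSMUSG00000028037, chromosome 3, 151730922 to 151749960, minus strand), an interferon-induced cytoplasmic protein, had 39.7 and 82.1 normalised counts at ZT0 and 848 and 524 at ZT18 and a log2 difference of -3.52 (SE 0.64). No other member of the list had a larger difference.

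Wider spread at ZT18, with replicate 1 the higher library, was seen in Isg15, Oasl2 and Ifit1. Isg15, the ubiquitin-like modifier, had 343 and 447 normalised counts at ZT0 and 2543 and 944 at ZT18. Oasl2 had 1242 and 1706 normalised counts at ZT0 and 7262 and 3700 at ZT18, and Ifit1, which binds foreign RNA ends, had 533 and 932 normalised counts at ZT0 and 2736 and 1947 at ZT18. Usp18, which restrains the interferon receptor, had 32.8 and 87.7 normalised counts at ZT0 and 429.8 and 162 at ZT18, and Oas2, a synthetase like Oas3, had 104 and 278 normalised counts at ZT0 and 1308 and 869 at ZT18. The cytosolic RNA sensor Ifih1 (MDA5) differed less, with 1858 and 1394 normalised counts at ZT0 and 2524 and 2261 at ZT18 and -0.57 (SE 0.19), yet its libraries did not overlap either. Irf7, the factor that amplifies the type I response, had 3321 and 8931 normalised counts at ZT0 and 9459 and 9989 at ZT18, so that ZT0 replicate 2 was close to the ZT18 level. The chemokine gene Cxcl10 was the 1 member above 0, with 19.9 and 20.5 normalised counts at ZT0 and 20.5 and 14.5 at ZT18, and Ifit1bl1 and Ifit3b were lower on average but overlapped. Reads of Ifit3 and Ifit3b, of Oas1a and Oas1g, and of the Gbp genes can be shared between close copies, so single values of these are uncertain. Ddx60 (ENSMUSG00000037921, chromosome 8, 61928087 to 62038244, plus strand), a helicase of antiviral sensing that is not in the list, had 569 and 443 normalised counts at ZT0 and 1382 and 1429 at ZT18, but 1422 and 1643 at ZT6 and 1028 and 1166 at ZT12, so it was low at ZT0 and not high at ZT18 alone.

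**Figure D3:**
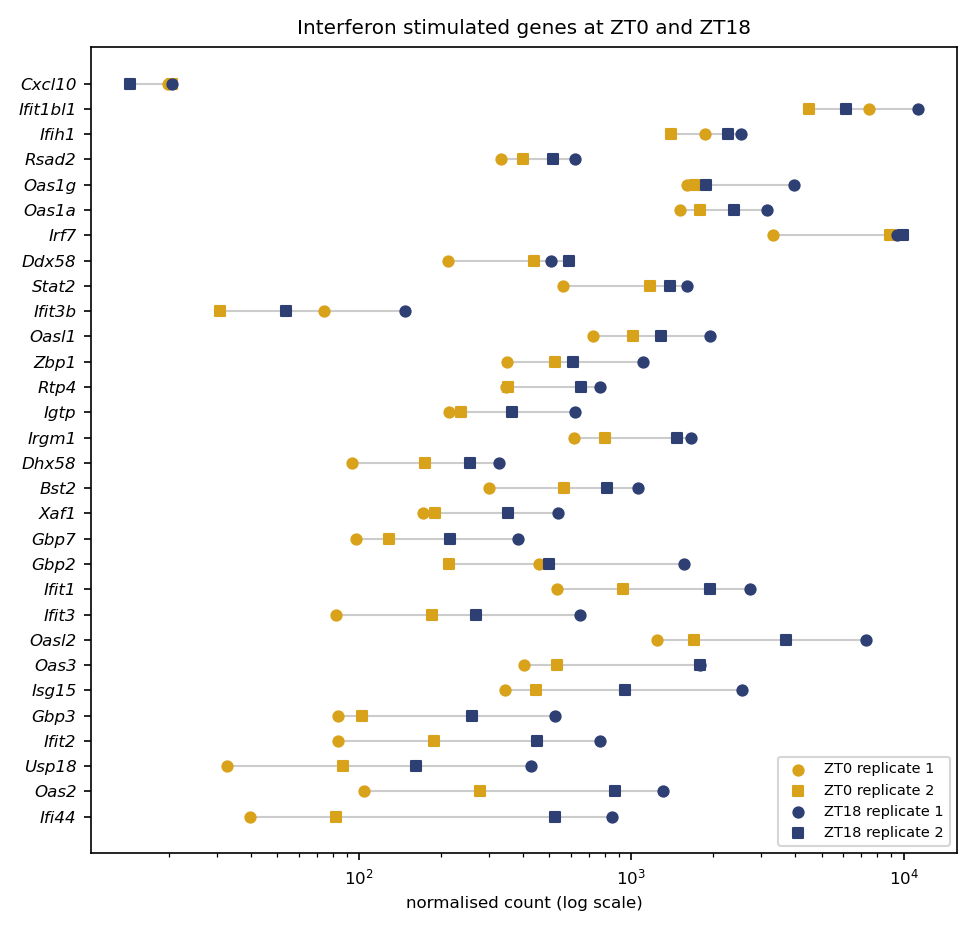
Normalised counts (x axis, log scale) of 30 genes of the interferon stimulated list in the ZT0 libraries (yellow) and the ZT18 libraries (dark blue), with circles for replicate 1 and squares for replicate 2, ordered by log2 difference. Both yellow points lie to the left of both blue points in all genes drawn except Cxcl10, Ifit1bl1 and Ifit3b.

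Markers of T cells, which make interferon gamma when active, were mostly lower at ZT0 as well. All 7 tested of the 10 listed had a log2 difference below 0. In 4 (Cd8a, Gzmb, Gzma and Itgae) both ZT0 libraries lay below both ZT18 libraries, as in 13.6% of all genes, while the sums of the list, given above, overlapped. Cd2 had 0 and 45.7 at ZT0 against 2.56 and 20.1 at ZT18, a higher mean at ZT0, and its log2 difference was above 0 with edgeR and DESeq2. Without ZT0 replicate 1, 4 of the 7 were lower and 3 higher. Cd8a had 2.98 and 12.1 at ZT0 against 81.2 and 84.4 at ZT18, and Gzmb had 0 and 10.3 at ZT0 against 41.0 and 50.7 at ZT18, in normalised counts. Gzmb, Gzma, Cd3g and Cd2 were at 0 in ZT0 replicate 1, which allows up to 2.98 normalised counts, the value of 3 reads there. The part of T cells in the interferon list was not tested. Without ZT18 replicate 1, which holds the milk protein transcripts, 30 of 31 interferon genes were lower, the median was -0.95 and 13 had an unadjusted p under 0.05. Without ZT0 replicate 1 these were 30, -1.01 and 15, and without ZT0 replicate 2 they were 30, -1.37 and 23.

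The ISRE, the element through which type I interferon acts on its target genes, was searched on either strand as a pair of GAAA half-sites with any 2 bases between them. It was found upstream of 17 of the 25 interferon genes with a window (68.0%), against 3.16% of all tested genes with one. The sequences of the 3 members with the smallest p whose window held a match and at most 30 exonic bases are shown with the matches in capitals, at chr3:142559794-142560043 for Gbp3, chr3:142530086-142530335 for Gbp7 and chr11:58199306-58199555 for Igtp, all on the plus strand. In Gbp3 a pair of matches overlap by 4 bases.
Gbp3: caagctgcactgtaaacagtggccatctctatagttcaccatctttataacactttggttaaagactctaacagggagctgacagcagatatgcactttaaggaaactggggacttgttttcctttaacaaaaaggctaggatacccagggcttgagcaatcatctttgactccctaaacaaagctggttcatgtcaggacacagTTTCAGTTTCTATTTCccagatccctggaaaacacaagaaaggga
Gbp7: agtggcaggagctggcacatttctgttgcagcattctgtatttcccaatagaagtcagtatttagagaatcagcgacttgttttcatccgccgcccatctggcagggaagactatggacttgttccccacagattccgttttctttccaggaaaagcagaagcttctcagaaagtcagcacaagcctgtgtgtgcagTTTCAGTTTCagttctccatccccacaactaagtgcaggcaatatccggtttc
Igtp: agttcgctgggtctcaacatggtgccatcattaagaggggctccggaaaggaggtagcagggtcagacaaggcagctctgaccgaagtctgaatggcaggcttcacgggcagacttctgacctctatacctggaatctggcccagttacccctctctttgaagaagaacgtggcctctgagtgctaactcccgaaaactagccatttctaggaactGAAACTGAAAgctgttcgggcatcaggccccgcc
These genes encode interferon-induced GTPases that attack the vacuoles of intracellular pathogens. Gbp3 had 83.4 and 103 normalised counts at ZT0 and 526 and 261 at ZT18, Gbp7 had 97.3 and 129 normalised counts at ZT0 and 383 and 216 at ZT18 and Igtp had 215 and 237 normalised counts at ZT0 and 624 and 366 at ZT18. In each, both ZT0 libraries lay below both ZT18 libraries.

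Clock genes split by role, with activators mostly higher and repressors and outputs lower at ZT0. Of the 21 clock genes tested from 4 lists, 16 were lower at ZT0 and 5 higher, and 17 had libraries that did not overlap, where 27.5% of all genes did not. An unadjusted p under 0.05 was reached by 11 genes lower and 1 higher at ZT0, against 2.46% and 2.56% of all genes. DESeq2 called 7 of the 21, all lower, where it called 0.296% of all genes as lower. None passed limma or edgeR. Bhlhe41 and Hlf, listed with them, were not analysed here.

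Among the activators, Arntl (ENSMUSG00000055116, chromosome 7, 113207465 to 113314126, plus strand) had 1597 and 1038 normalised counts at ZT0 and 649 and 799 at ZT18, a log2 difference of 0.84 (SE 0.27), higher in both ZT0 libraries. Npas2, the other partner of BMAL1, had 998 and 783 normalised counts at ZT0 and 464 and 685 at ZT18, with 0.65 (SE 0.33). Clock had 2315 and 1401 normalised counts at ZT0 and 1666 and 1700 at ZT18, and its difference of 0.10 (SE 0.23) turned to -0.26 without ZT0 replicate 1. Rora, which encodes a nuclear receptor that activates Arntl, was near the low end of the table with 10.9 and 20.5 normalised counts at ZT0 and 10.3 and 6.43 at ZT18.

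The PAR bZIP factors gave the widest steps. Tef (ENSMUSG00000022389, chromosome 15, 81802421 to 81826863, plus strand) had 237 and 389.9 normalised counts at ZT0 and 1830 and 1182 at ZT18, and 1259 and 1354 at ZT6 and 4001 and 3239 at ZT12. Its log2 difference of -2.27 (SE 0.28) came with a limma adjusted p of 0.0841 and a DESeq2 adjusted p of 2.17e-10. Dbp (ENSMUSG00000059824, chromosome 7, 45705088 to 45710203, plus strand) had 26.8 and 21.5 normalised counts at ZT0 and 89.7 and 88.5 at ZT18, a log2 difference of -1.85 (SE 0.30), and at ZT18 had already come down from 482 and 361 at ZT6 and 1593 and 1113 at ZT12. Nfil3, the repressor that binds the same D-box sites, had 156 and 180.0 normalised counts at ZT0 and 144 and 228 at ZT18, which overlapped.

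Most repressors were also lower at ZT0. Nr1d2 (ENSMUSG00000021775, chromosome 14, 18204054 to 18239127, minus strand), the REV-ERB beta gene, had 283 and 226 normalised counts at ZT0 and 743 and 659.5 at ZT18, with -1.47 (SE 0.21). Nr1d1, the REV-ERB alpha gene, was at 280.1 and 137 normalised counts at ZT0 and 197 and 142 at ZT18, low at both times against 1830 and 1352 at ZT6 and 1685 and 1306 at ZT12, and its difference of 0.23 (SE 0.34) turned to -0.28 without ZT0 replicate 1 and to -0.0035 without ZT18 replicate 2. Per2 (ENSMUSG00000055866, chromosome 1, 91415982 to 91459324, minus strand) had 487 and 716 normalised counts at ZT0 and 1599 and 1923 at ZT18, a difference of -1.57 (SE 0.25). Per3 had 238 and 127 normalised counts at ZT0 and 480.2 and 469.7 at ZT18 and Per1 had 392 and 265 normalised counts at ZT0 and 574 and 563 at ZT18, with differences of -1.44 (SE 0.29) and -0.82 (SE 0.25). Cry2 had 462 and 658 normalised counts at ZT0 and 1029 and 837 at ZT18, and Cry1, the late repressor, had 935 and 863 normalised counts at ZT0 and 1137 and 1239 at ZT18, with -0.40 (SE 0.19). Ciart, a repressor of the BMAL1 complex, had 14.9 and 18.7 normalised counts at ZT0 and 35.9 and 60.3 at ZT18. Cipc, which inhibits CLOCK, had 1750 and 1952 normalised counts at ZT0 and 3061 and 3313 at ZT18, and Bhlhe40, which competes for E-boxes, had 2106 and 1921 normalised counts at ZT0 and 2279 and 3157 at ZT18, where the unadjusted p was 0.0576. Of the 10 repressors tested, 9 were lower at ZT0 in both libraries (13.6% of all genes), and the median was -0.80. An unadjusted p under 0.05 in that direction was reached by 7 (2.46% of all genes). In 7 of the 10 the highest mean was at ZT12, where 30.3% of all genes had theirs.

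Clock-controlled enzymes were represented by Nampt, Wee1 and Usp2. Nampt, the rate-limiting enzyme of NAD salvage, had 1051 and 1598 normalised counts at ZT0 and 1758 and 2138 at ZT18 and a log2 difference of -0.58 (SE 0.22). Usp2 had 366 and 644 normalised counts at ZT0 and 649 and 826 at ZT18. Wee1, the kinase that holds Cdk1 inactive before mitosis, had 483 and 277 normalised counts at ZT0 and 326 and 547 at ZT18, and its difference of -0.21 (SE 0.32) turned to 0.19 without ZT0 replicate 2 and to 0.16 without ZT18 replicate 2.

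**Figure D4:**
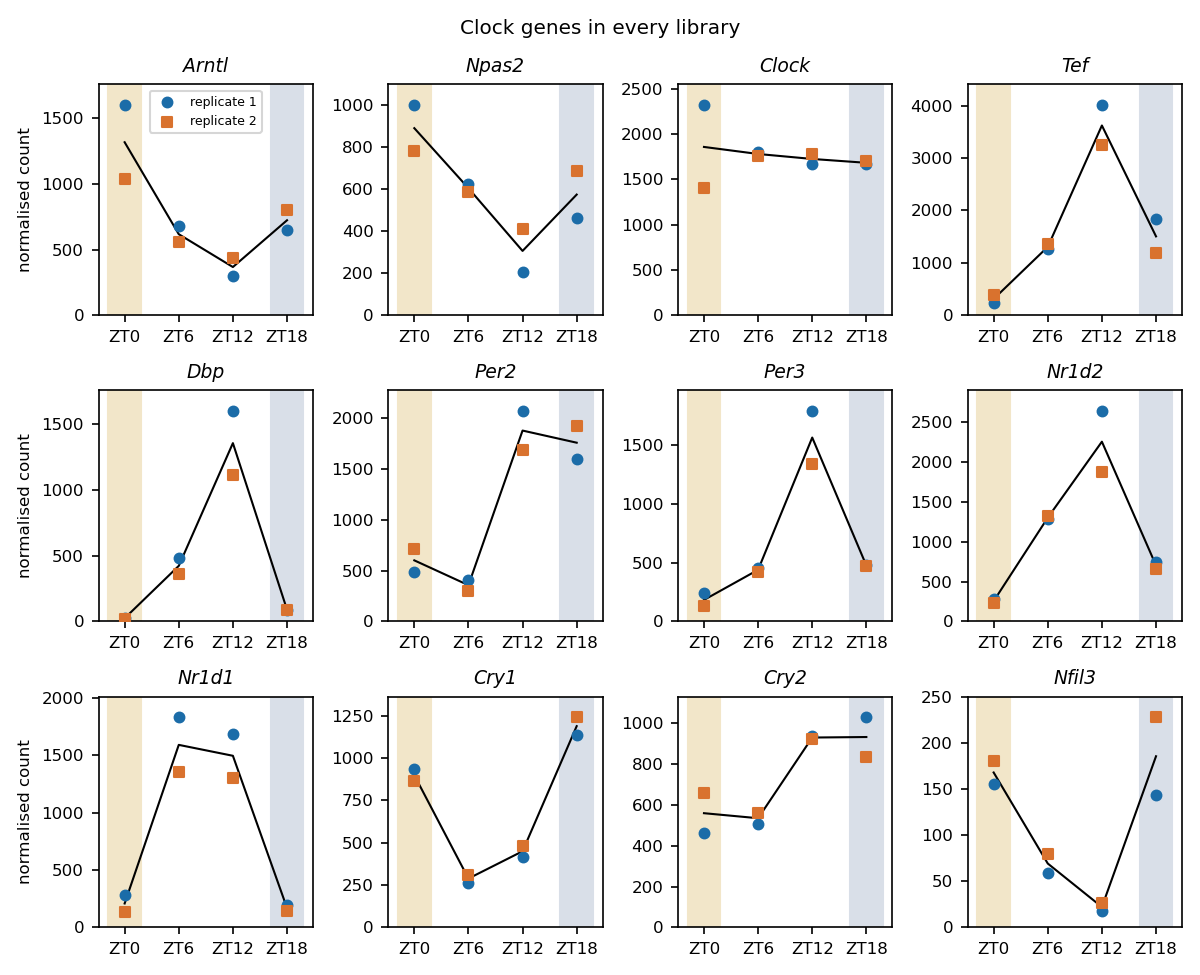
Normalised counts (y axis, from 0) of 12 clock genes in every library at ZT0, ZT6, ZT12 and ZT18 (x axis), with circles for replicate 1, squares for replicate 2 and lines through the means of each time point. The yellow and grey bands mark the ZT0 and ZT18 libraries. From ZT18 to ZT0, Arntl and Npas2 were higher in both libraries and Tef, Dbp, Per2, Per3, Nr1d2, Cry1 and Cry2 lower.

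Upstream sequences are shown for the 2 clock genes of smallest p whose window held a perfect E-box (CACGTG, the site of BMAL1) or D-box (TTATGTAA, a site of the PAR bZIP factors) and at most 30 exonic bases, with the matches in capitals. The windows are chr15:81811164-81811413 for 1 of 2 starts of Tef (plus strand) and chr4:151044666-151044915 for Per3 (minus strand).
Tef: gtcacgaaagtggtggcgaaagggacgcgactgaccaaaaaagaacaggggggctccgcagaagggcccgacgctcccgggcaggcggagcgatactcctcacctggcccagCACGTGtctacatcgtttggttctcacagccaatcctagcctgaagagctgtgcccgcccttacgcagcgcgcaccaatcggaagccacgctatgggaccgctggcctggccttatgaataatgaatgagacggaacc
Per3: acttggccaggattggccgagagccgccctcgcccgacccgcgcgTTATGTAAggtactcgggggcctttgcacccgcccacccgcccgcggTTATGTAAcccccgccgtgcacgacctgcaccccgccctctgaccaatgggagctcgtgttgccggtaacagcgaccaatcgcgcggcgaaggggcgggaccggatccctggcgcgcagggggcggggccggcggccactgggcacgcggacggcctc
Tef held 1 E-box and Per3 2 D-boxes. CACGTG was found upstream of 5 of the 17 clock genes with a window (29.4%), against 9.68% of all tested genes, and TTATGTAA upstream of 1 (5.88%, against 0.590%). The core of the RORE, AGGTCA, to which REV-ERBs bind, was found in 5 (29.4%, against 13.4%).

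Genes of corticosteroid signalling were mostly lower at ZT0, some of them by little. Corticosterone in mice is high around the onset of the dark phase, and aldosterone acts on salt uptake in the distal colon. In the corticosteroid list 13 of 14 genes were lower at ZT0, 8 in both libraries (13.6% of all genes), with a median of -0.42, and 4 had an unadjusted p under 0.05 (2.46% of all genes). Sgk1 (ENSMUSG00000019970, chromosome 10, 21882184 to 21999903, plus strand), the kinase that keeps sodium channels and exchangers at the cell surface, had 3760 and 4285 normalised counts at ZT0 and 7944 and 9421 at ZT18, and 2622 and 2832 at ZT6 and 4265 and 6942 at ZT12. Its log2 difference was -1.11 (SE 0.24), with a limma adjusted p of 0.478 and a DESeq2 adjusted p of 0.00386. Fkbp5, a chaperone partner of the glucocorticoid receptor, had 1599 and 2526 normalised counts at ZT0 and 3266 and 4448 at ZT18, with -0.92 (SE 0.25). Scnn1b, a subunit of the epithelial sodium channel, had 102 and 113 normalised counts at ZT0 and 239 and 243 at ZT18, with -1.16 (SE 0.32). Tsc22d3, which encodes GILZ, had 1467 and 958 normalised counts at ZT0 and 2412 and 1705 at ZT18. Klf9, Dusp1 and Zbtb16, also in the list, differed by -0.14 (SE 0.22), -0.22 (SE 0.36) and 0.02 (SE 0.59), with libraries that overlapped. Without ZT0 replicate 2, 10 of the 14 were lower and the median was -0.23.

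Transport of ions and solutes was lower in a few genes. Slc9a3 (ENSMUSG00000036123, chromosome 13, 74121457 to 74169442, plus strand), the apical sodium-proton exchanger NHE3 of the absorptive cells, had 4386 and 4351 normalised counts at ZT0 and 9387 and 7955 at ZT18, and 7773 and 8096 at ZT6 and 12298 and 9862 at ZT12. The ZT0 libraries were nearly equal and below all 6 other libraries, and the log2 difference was -0.98 (SE 0.19) (limma adjusted p 0.303, DESeq2 adjusted p 0.00023). Clca4a and Clca4b, close copies of each other whose reads can be shared, had 10317 and 5580 at ZT0 against 19143 and 11668 at ZT18 and 85.4 and 63.4 at ZT0 against 169 and 139.9 at ZT18. Over the 19 genes of the transport list, 12 were lower and 7 higher, with a median of -0.15 that turned to 0.15 without ZT0 replicate 2.

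The peptide transporter gene Slc15a2 (ENSMUSG00000022899, chromosome 16, 36750177 to 36784962, minus strand) had the lowest log2 difference of all genes tested. It had 2.98 and 7.46 normalised counts at ZT0 and 149 and 452 at ZT18, which are 3 and 8 reads at ZT0 and 174 and 562 at ZT18, and 262 and 112 at ZT6 and 149.8 and 64.6 at ZT12. All 6 libraries outside ZT0 were far above both ZT0 libraries, although those of ZT18 differed widely from each other. The log2 difference was -5.49 (SE 0.70), the limma adjusted p 0.0841 and the DESeq2 adjusted p 2.35e-10. Pm20d1 (ENSMUSG00000042251, chromosome 1, 131797381 to 131821473, plus strand), a secreted enzyme that makes N-acyl amino acids, had 187 and 256 normalised counts at ZT0 and 846 and 1095 at ZT18, with -2.13 (SE 0.28). St3gal1 (ENSMUSG00000013846, chromosome 15, 67102875 to 67176830, minus strand), a sialyltransferase that caps O-glycans, had 586 and 613 normalised counts at ZT0 and 1138 and 1157 at ZT18, with -0.94 (SE 0.17). These 3 and Tef, Ddx60, Nr1d2, Per2, Dbp, Oas3 and Ifi44 were among the 12 genes lower at ZT0 with the smallest p among genes whose mean reached 50 and whose libraries did not overlap. DESeq2 called all 12, where it called 0.296% of all genes as lower. The 12 were picked by their p in the same libraries, so these calls are not independent of the choice.

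Of the 12 such genes higher at ZT0, picked in the same way, 11 were called by DESeq2, where it called 0.118% of all genes as higher. Given above with mitosis are 8 of the 12, of which Ube2c, Ccnb2, Mki67 and Ccnb1 are in the list and Cenpa, Ncapd2, Knstrn and Cdca3 are not. The gene with the smallest p of all was the long noncoding RNA Gm42047 (ENSMUSG00000110631, chromosome 8, 121833247 to 121841178, plus strand), with 1317 and 1112 normalised counts at ZT0 and 206 and 178 at ZT18, and 2719 and 1619 at ZT6 and 1514 and 892 at ZT12. It was low at ZT18 and not high at ZT0, its log2 difference was 2.65 (SE 0.31) and its limma adjusted p 0.0841, and it overlaps Gm20388 on the same strand. 9230105E05Rik (ENSMUSG00000090191, chromosome 10, 120389523 to 120392793, plus strand), annotated antisense to Hmga2, had 179 and 199 normalised counts at ZT0 and 62.4 and 67.6 at ZT18, and without known strand use its reads cannot be told from those of Hmga2. Sprr2a1 (ENSMUSG00000078664, chromosome 3, 92215799 to 92221911, plus strand), a cornified envelope gene that the stressed gut also makes, had 2036 and 1533 normalised counts at ZT0 and 875 and 812 at ZT18, but its annotation overlaps that of its copy Sprr2a2. Pecam1 (ENSMUSG00000020717, chromosome 11, 106654217 to 106750628, minus strand), which encodes the endothelial junction protein CD31, had 90.4 and 103 normalised counts at ZT0 and 24.8 and 26.5 at ZT18, with 112 and 115 at ZT6 and 271 and 179.9 at ZT12. The other 3 tested endothelial markers were also higher at ZT0 on average, with libraries that overlapped, and Vwf had 69.5 and 67.2 at ZT0 against 74.3 and 20.9 at ZT18.

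The study asked whether apoptosis in the crypt follows the time of day. It reported apoptosis gene scores that were higher at ZT0 to ZT6 and lower at ZT12, and cleaved caspase 3 staining highest at ZT0 and lowest at ZT12. The step from ZT18 to ZT0 is a different comparison, made here in RNA alone. In the pro-apoptotic list 18 of 29 genes were lower at ZT0 and 11 higher, 10 and 3 in both libraries (13.6% and 13.9% of all genes), with a median of -0.09 that came to 0.00 when libraries were scaled to their non-mitochondrial reads. Bax (ENSMUSG00000003873, chromosome 7, 45461697 to 45466898, minus strand), which opens the outer mitochondrial membrane, had 1169 and 1396 normalised counts at ZT0 and 945 and 869 at ZT18, a log2 difference of 0.49 (SE 0.24) (limma adjusted p 0.998). Bak1, which does the same, had 1536 and 1746 normalised counts at ZT0 and 2603 and 1691 at ZT18, with -0.36 (SE 0.25), and its ZT0 replicate 2 lay above ZT18 replicate 2. Trp53, the gene of p53, had 534 and 643 normalised counts at ZT0 and 491 and 608 at ZT18, and its difference of 0.10 (SE 0.21) turned to -0.03 without ZT0 replicate 2 and to -0.05 without ZT18 replicate 1. Bcl2l11 (ENSMUSG00000027381, chromosome 2, 128126038 to 128162547, plus strand), which encodes the BH3-only protein BIM, was the 1 member with an unadjusted p under 0.05, at 308 and 299 normalised counts at ZT0 and 534 and 429 at ZT18 and -0.65 (SE 0.21). Among 11 anti-apoptotic genes 5 were higher and 6 lower, and Birc3, which encodes cIAP2, had 1967 and 1156 normalised counts at ZT0 and 1030 and 839.7 at ZT18, with 0.70 (SE 0.24).

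Chaperone genes were mostly lower at ZT0 than at ZT18. In the list of heat shock and cold-inducible genes 16 of 18 were lower at ZT0, 7 in both libraries (13.6% of all genes), with a median of -0.26, and 15 had their highest mean at ZT18 (25.1% of all genes). The 2 that were higher were the cold-inducible genes Rbm3 and Cirbp, by 0.19 (SE 0.18) and 0.29 (SE 0.29), with libraries that overlapped. The members with an unadjusted p under 0.05 were Hspd1, the mitochondrial chaperonin, with 3413 and 3316 normalised counts at ZT0 and 4294 and 4811 at ZT18, and Hsp90ab1, a cytosolic chaperone, with 14634 and 16225 normalised counts at ZT0 and 21144 and 20846 at ZT18. The unfolded protein list had 19 of 22 lower with a median of -0.14, among them Calr, the calcium-binding chaperone of the endoplasmic reticulum, with 7039 and 7436 normalised counts at ZT0 and 9363 and 11389 at ZT18. In the cholesterol synthesis list 20 of 24 were lower, with a median of -0.19 and 0 at an unadjusted p under 0.05. These 3 medians kept their sign under all 17 alternatives, although that of cholesterol synthesis came to -0.01 without ZT0 replicate 2.

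The remaining lists had medians that turned sign under at least 1 alternative and gave few single genes. Fatty acid synthesis had 7 of 12 genes higher, with Fads1, a fatty acid desaturase, at 343 and 439 normalised counts at ZT0 and 236 and 197 at ZT18. Fatty acid oxidation and ketogenesis had 14 of 18 lower, none at an unadjusted p under 0.05. Xenobiotic metabolism had 14 of 24 lower, with Cyp3a13, a detoxifying cytochrome, at 3544 and 2627 normalised counts at ZT0 and 5395 and 5750 at ZT18. Autophagy and lysosome genes were lower in 19 of 28, and Wipi1, which acts in autophagosome formation, ran the other way at 237 and 267 normalised counts at ZT0 and 167 and 167 at ZT18. In the antimicrobial list 8 of 13 were lower, with Nos2, the inducible nitric oxide synthase, at 14.9 and 11.2 normalised counts at ZT0 and 51.3 and 29.0 at ZT18. Its highest counts were 175 and 248 at ZT6, and it had 64.6 and 42.7 at ZT12.

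Immediate early genes were split, 10 of 16 higher, and the 2 with an unadjusted p under 0.05 went opposite ways. Egr1 had 367 and 423 normalised counts at ZT0 and 223 and 187 at ZT18, and Fosb had 126 and 109 normalised counts at ZT0 and 343 and 278 at ZT18. MHC class II genes were higher in 4 of 9 and summed to 591 and 7578 at ZT0 and 3245 and 2628 at ZT18, highest in ZT0 replicate 2. Distal Hox genes were higher in 6 of 7, among them Hoxd12 with 64.6 and 41.0 normalised counts at ZT0 and 12.8 and 2.41 at ZT18. Cytosolic ribosomal protein genes were higher in 69 of 83 with a median of 0.14 that turned to -0.24 without ZT18 replicate 2, and none had an unadjusted p under 0.05. Genes of the nuclear-encoded respiratory chain were higher in 34 of 76 and mitochondrially encoded genes in 6 of 12, where mt-Nd4l, at 1.99 and 12.1 normalised counts at ZT0 and 41.0 and 29.0 at ZT18, overlaps mt-Nd4.

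**Figure D5:**
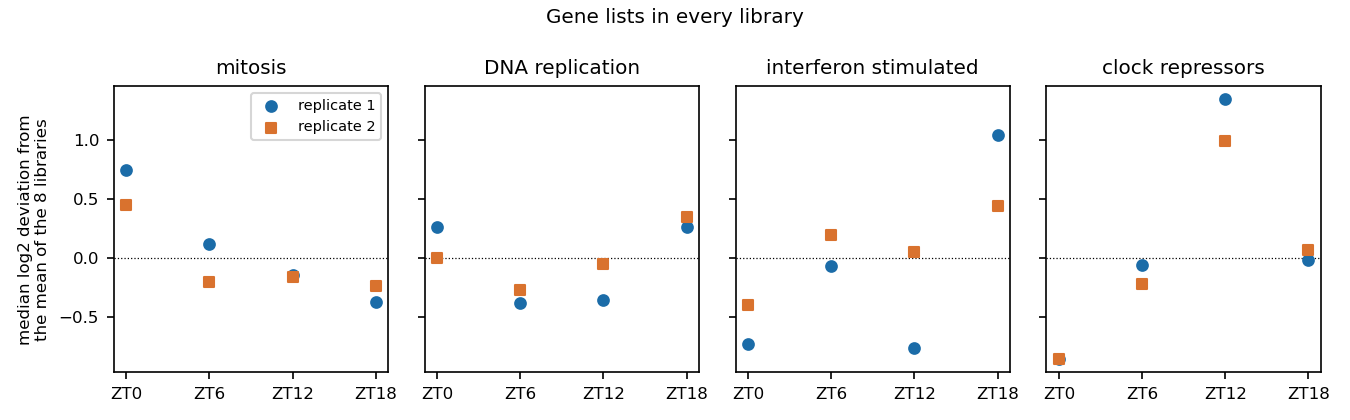
Log2 level relative to the average over 8 libraries (y axis), as the median over the genes of 4 lists, in every library at ZT0, ZT6, ZT12 and ZT18 (x axis), with circles for replicate 1 and squares for replicate 2. The mitosis list was at 0.75 and 0.45 in the ZT0 libraries and at -0.38 and -0.23 at ZT18, and the interferon stimulated list at -0.73 and -0.40 against 1.04 and 0.44.

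Marker lists of epithelial subtypes leaned both ways. Median log2 differences were -0.08 for the epithelial, -0.21 for the colonocyte, -0.29 for the goblet cell and -0.36 for the tuft cell list, and 0.48 for the enteroendocrine list, which turned to -0.50 without ZT18 replicate 1. Smooth muscle markers had a median of -0.11 over 6 genes. Those of enteric neurons and glia, of red blood cells and of stratified squamous epithelium had 2 tested genes each, with sums between 2 and 271 normalised counts in the 4 libraries.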

How the data were processed

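Crypt RNA was sequenced in paired ends, aligned to GRCm38 with STAR and normalised with DESeq2 by the authors. The gene annotation, the counter and its use of strand were not given in the sources used here. The deposited values are a coverage signal per gene, read counts divided by a size factor per library. Deposited log2 fold changes, their standard errors and p-values of the authors' own comparisons were not used. Dividing by the value of 1 read gave whole reads, within 0.1 read, for all values of the 8 libraries.

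Libraries were compared with limma 3.58.1 (R 4.3.3, eBayes with trend) on log2(normalised count + 1), fitted to all 8 libraries with a mean per time point. Genes needed a mean of at least 10, p-values were adjusted by Benjamini-Hochberg over 13503 genes, and the threshold was 0.05. Log2 differences are on this scale. The added 1 shrinks the change of low genes, but where replicates were uneven the difference could exceed that of the count tests. Cd3g, for example, had -2.32 on this scale and -0.80 with edgeR. The steps were tested on simulated data. The alternatives were edgeR 4.0.16 (quasi-likelihood) and DESeq2 1.42.0 on recovered reads, other scalings, pseudocounts of 0.1 and 5, other filters, leaving out each library, and the replicate number as a block.

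Members and lists were chosen with earlier results of these data known. Named genes were all clock genes, the 12 higher and 12 lower with the smallest p among genes whose mean reached 50 and whose libraries did not overlap, up to 3 per other list, and Bax, Bak1 and Trp53. Some genes that the rule names are not reported here. All other genes given with values were named after their values were seen. Of 66 genes named by the rule, 34 overlap another annotated gene, 24 on the opposite strand, and reads of such pairs, as of Dbp with Sphk2 or Nr1d1 with Thra, cannot be told apart. Gene positions come from GENCODE M21, which held 14244 of the 14247 gene identifiers, and 10511 tested genes had a RefSeq promoter window. Limits given for counts of 0 cover counting error only.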

Additional observations from a re-analysis of the deposited data

How the results depend on the processing

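The number of genes called, 0, became 1 (Gm42047) with the replicate number as a block, 4 after removal of the trend on GC content and length, 56 by DESeq2, and 0 to 3 with 1 library left out, the 3 without ZT0 replicate 2. The shared numbers do not pair libraries in the labels, and the correlation of deviations between same-numbered ZT0 and ZT18 libraries was 0.217. With the replicate block 589 genes had an unadjusted p under 0.05. That count, 678, was 309 with the 4 libraries of ZT0 and ZT18 alone, where fewer libraries estimate the spread, and 722 to 1359 with 1 library left out, the 1359 without ZT18 replicate 2 (862 higher) and 722 without ZT0 replicate 1. The cause was not tested. A lone library left in an arm was assumed to vary like the others.

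The median of the clock repressors was -0.71 when libraries were scaled to their non-mitochondrial reads, -0.87 after removal of the GC and length trend, and between -0.93 and -0.82 with 1 library left out. That of the corticosteroid list lay between -0.59 and -0.23 and that of DNA replication between -0.26 and 0.018 with 1 library left out, and the latter was -0.30 under quantile normalisation. The medians of 10 of the 25 pathway lists, among them mitosis and interferon stimulated genes, kept their sign under all 17 alternatives.

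Of 1119 values of 66 named genes under alternatives, 1078 kept their direction and side of the threshold and 33 passed it, mainly with DESeq2. Direction changed in 8, all with 1 library left out. The differences then lay between -0.28 and 0.74 for Nr1d1 (-0.28 without ZT0 replicate 1, -0.0035 without ZT18 replicate 2), between -0.61 and 0.19 for Wee1 (0.19 without ZT0 replicate 2, 0.16 without ZT18 replicate 2), between -0.053 and 0.25 for Trp53 (-0.032 without ZT0 replicate 2, -0.053 without ZT18 replicate 1), between -0.26 and 0.46 for Clock (-0.26 without ZT0 replicate 1), and between -0.44 and 0.22 for Nfil3 (0.22 without ZT18 replicate 2). With 2 libraries per time point, genes with few reads, such as the T cell markers, are measured least firmly.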
